A study of Mus musculus with 29 samples.

Results

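Chemokines are small secreted proteins that direct the migration of leukocytes, and their receptors are G protein-coupled receptors on the cells that respond. In the liver they are made by hepatocytes, Kupffer cells (the resident macrophages), endothelial cells and stellate cells, and they draw monocytes, neutrophils, T cells and NK cells into the tissue. CC and CXC ligands are named by the spacing of their first cysteines, and most CC ligands bind CCR receptors while most CXC ligands bind CXCR receptors. The genes described here are those whose name on the array is Ccl, Ccr, Cxcl, Cxcr, Cx3cl or Cx3cr followed by a digit. That rule uses names only and found 55 genes of the 31693 named genes on the array, read by 67 probes in 76 spots. They comprise 22 CC ligands, 14 CXC or CX3C ligands and 19 receptors.

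The RNA came from whole livers of 29 male wild-type C57BL/6N mice that were 3 months old when the feeding began and were fed for 7 weeks. The cHF+PC diet (8 livers) was a corn-oil high-fat diet in which about 7% of the lipid was exchanged for omega-3 phospholipids carrying EPA and DHA, and the cHF+R diet (6 livers) was the high-fat diet with low-dose rosiglitazone, an agonist of PPAR-gamma. The cHF+PC+R diet (8 livers) held both agents, and the cHF diet (7 livers) held neither, so all 4 groups share the high-fat feeding and mice on ordinary chow were not analysed here. Each liver, labelled with Cy5, was hybridised against a pool of all samples labelled with Cy3. Values below are log2 ratios of liver to pool, and changes are 1 group's mean log2 ratio minus another's. On cHF replicate 4, 80.8% of spots were well above background, against 55.0% to 62.5% on the other arrays, and between 36 and 49 of the 67 chemokine and receptor probes were well above background per array. All 10 hepatocyte markers measured passed the filter on dim probes.

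**Figure D1:**
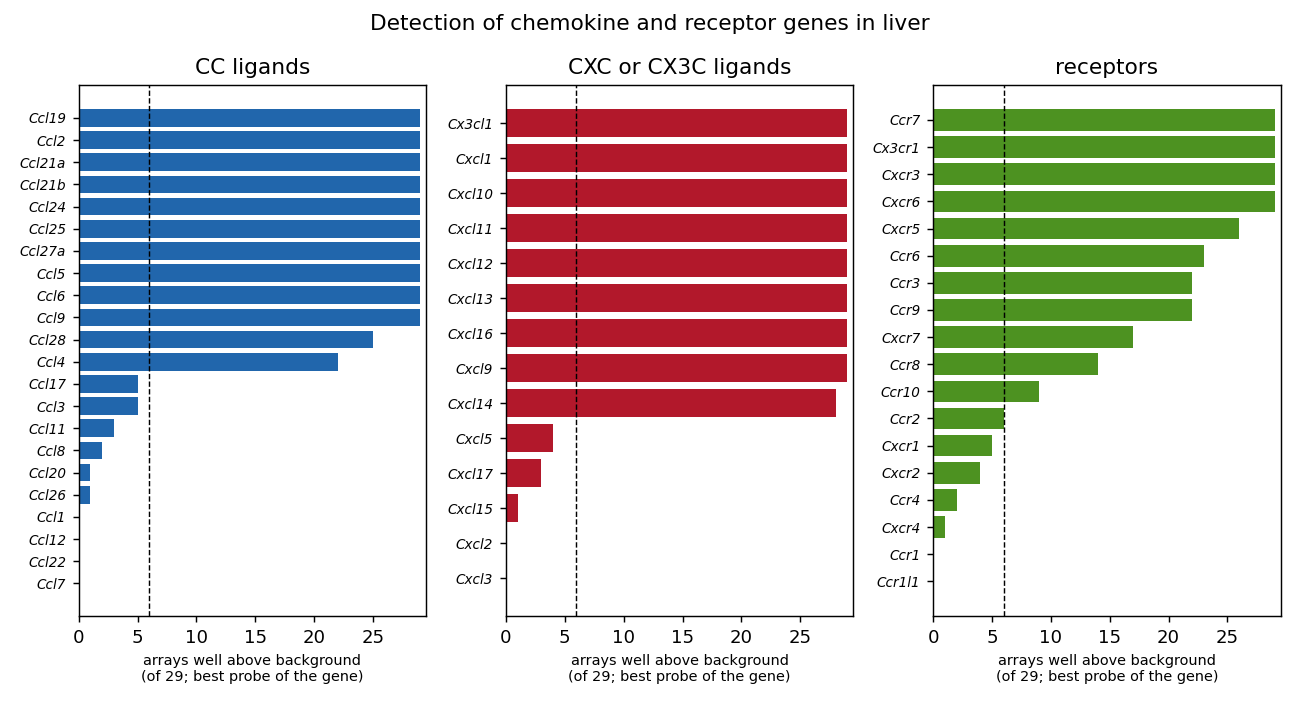
Number of the 29 arrays on which each gene's best probe was well above background in the liver channel, by role, with the dashed line at the 6 arrays needed for testing. Of the 54 genes drawn, 22 reached all arrays and 8 reached none.

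Of the 55 genes, 34 were bright enough in these livers to be tested. A gene was tested if a probe of it was well above background on at least 6 arrays, and 21 genes were left out. Of the CC ligands 12 of 22 were kept, of the CXC and CX3C ligands 9 of 14, and of the receptors 13 of 19. The 23 genes above background on every array included the ligands Ccl2, Ccl5, Ccl6, Ccl9, Ccl19, Ccl21a, Ccl21b, Ccl24, Ccl25, Ccl27a, Cxcl1, Cxcl9, Cxcl10, Cxcl11, Cxcl12, Cxcl13, Cxcl16 and Cx3cl1, and the receptors Ccr7, Cxcr3, Cxcr6 and Cx3cr1. A further 11 were above background on 6 to 28 arrays, namely Ccl4, Ccl28, Cxcl14, Ccr2, Ccr3, Ccr6, Ccr8, Ccr9, Ccr10, Cxcr5 and Cxcr7 (the CXCL12 scavenger receptor now named Ackr3). On 1 to 5 arrays lay 13 genes, namely Ccl3, Ccl8, Ccl11, Ccl17, Ccl20, Ccl26, Cxcl5, Cxcl15, Cxcl17, Ccr4, Cxcr1, Cxcr2 and Cxcr4. The remaining 8 were not well above background on any array, namely Ccl1, Ccl7, Ccl12, Ccl22, Cxcl2, Cxcl3, Ccr1 and Ccr1l1. Cxcr2, which binds the neutrophil attractants, was thus above background on 4 arrays, and Cxcr4, the signalling receptor of CXCL12, on 1. In whole tissue, fewer cells of a type and less RNA per cell cannot be told apart.

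Few of the 34 genes changed, and those that did were ligands. With phospholipids alone, Ccl9 rose and Cxcl14 fell, 2 of 34, where 3.93% of the 19463 genes tested passed the threshold (limma, adjusted p below 0.05 over all genes). With rosiglitazone alone none of 34 passed in limma, against 3.12% of all genes, and 4 had an unadjusted p below 0.05. With both agents, 3 of 34 passed against cHF (Ccl9 and Cxcl13 rose, Cxcl14 fell), where 9.49% of all genes did. Against cHF+R the combination lowered Cxcl14 and called no other of the 34, where 7.13% of all genes passed. Against cHF+PC none of 34 passed in limma, 1 had an unadjusted p below 0.05, and 0.134% of all genes passed. The interaction of the agents called none of 34 in limma, 2 had an unadjusted p below 0.05, and it called no gene at all (0%), with 1293 at an unadjusted p below 0.05. Averaged over rosiglitazone, phospholipids called 3 of 34 (Ccl9 and Cxcl11 higher, Cxcl14 lower) against 16.3% of all genes. Averaged over phospholipids, rosiglitazone called none of 34 in limma, 3 had an unadjusted p below 0.05, and 4.2% of all genes passed. The comparisons with cHF share its 7 livers, and the averaged effects reuse all 29. The share of the 34 genes called stood highest relative to all genes with phospholipids alone, at 5.88% against 3.93%, which is 2 genes.

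The median change of the 34 genes was close to that of all genes tested. It was -0.02 with phospholipids alone (all genes 0.00), 0.07 with rosiglitazone alone (all genes 0.01) and 0.02 with both agents (all genes 0.01). With rosiglitazone alone 24 of 34 genes had a positive value, as did 56.5% of all genes, and with phospholipids alone 12 of 34 did, against 50.4%.

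**Figure D2:**
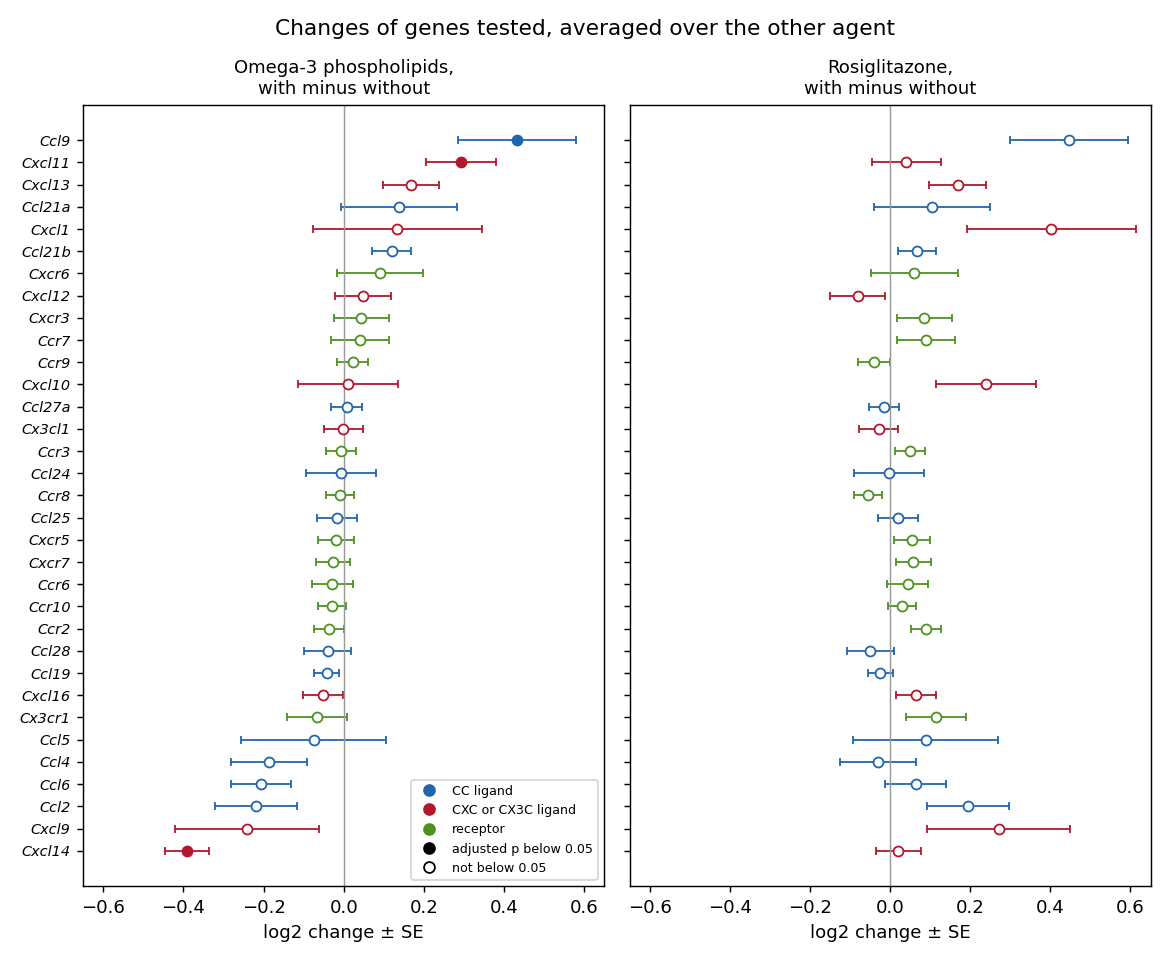
Log2 change ± SE of 33 of the genes tested, for phospholipids averaged over rosiglitazone (left) and rosiglitazone averaged over phospholipids (right), coloured by role. Filled points are genes with an adjusted p below 0.05, and these are Ccl9, Cxcl11 and Cxcl14 in the left panel and no gene in the right.

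Among the CC ligands, Ccl9 was the only one of 12 to pass in any comparison. CCL9 is a mouse ligand of CCR1 that attracts dendritic cells and myeloid cells. Its log2 ratios (lowest, median, highest) were -0.51, 0.11 and 0.77 in cHF+PC livers, -0.30, 0.02 and 0.89 in cHF+R livers, -0.01, 0.36 and 0.98 in cHF+PC+R livers, and -0.98, -0.74 and 0.12 in cHF livers. Of the cHF livers 4 lay at or below -0.74 and 3 lay between -0.24 and 0.12, within the ranges of cHF+PC and cHF+R, and 6 of 8 cHF+PC+R livers lay above every cHF liver. With both agents Ccl9 rose by 0.88 ± 0.20 (SE) on the log2 scale, 1.84-fold (adjusted p = 0.00609, limma), and was higher on 7 of 7 slides that held both groups. This call was kept without any single array, and was lost under median centring (1.01, adjusted p = 0.115) and under scaling between arrays (0.85, adjusted p = 0.350). With phospholipids alone it rose by 0.695 ± 0.20, 1.62-fold (adjusted p = 0.0491), higher on 5 of 7 shared slides. The call was lost in 6 of 11 other settings, with the slide as a block among them (0.71, adjusted p = 0.0776). That adjusted p lay between 0.0201 and 0.107 with 1 array left out, and the call was lost when any of 19 arrays was left out, as was the averaged phospholipid call for any of 17 and in 5 of 11 settings. With rosiglitazone alone the value was 0.71 ± 0.22, 1.64-fold, and did not pass (adjusted p = 0.0722). It passed without cHF replicate 3, at 0.82 (adjusted p = 0.0383). The combination differed from cHF+PC by 0.18 ± 0.20 (adjusted p = 0.841) and from cHF+R by 0.17 ± 0.21 (adjusted p = 0.692), and the interaction was -0.53 ± 0.29 (adjusted p = 0.774). Ccr1, the receptor, was not well above background on any array.

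Of 16 markers of Kupffer cells and macrophages, which can make CCL9, none passed in limma in any of the 8 comparisons. At an unadjusted p below 0.05 stood 1 with phospholipids alone, 3 with rosiglitazone alone and 0 with both, with median changes against cHF of -0.08 with phospholipids, 0.11 with rosiglitazone and 0.02 with both. The mean log2 ratio of the list ran between -0.40 and 0.15 in cHF+PC livers, -0.15 and 0.61 in cHF+R livers, -0.33 and 0.24 in cHF+PC+R livers, and -0.32 and 0.18 in cHF livers. The part of these cells in the change of Ccl9 was not tested.

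Ccl6, the neighbour of Ccl9 on chromosome 11 and another ligand of CCR1 in mice, did not rise with it. It is named here because of its position and was chosen after its values were seen. Its log2 ratios were -0.37, -0.15 and 0.19 in cHF+PC livers, -0.16, 0.11 and 0.58 in cHF+R livers, -0.42, -0.13 and 0.11 in cHF+PC+R livers, and -0.23, -0.08 and 0.30 in cHF livers. Averaged over rosiglitazone the phospholipid value was -0.21 ± 0.075 for Ccl6 (adjusted p = 0.0581) and 0.43 ± 0.15 for Ccl9 (adjusted p = 0.0425). The promoters of the pair are printed because the genes are neighbours whose phospholipid values had opposite signs. With rosiglitazone alone both were positive, at 0.13 for Ccl6 and 0.71 for Ccl9. The windows are the 250 bases before the start of each gene, on the minus strand of chr11:83578637-83578886 and chr11:83593088-83593337 (RefSeq, GRCm38.p6), with capitals on matches to the NF-kB consensus and to TATAAA, on either strand and with overlapping matches joined.
Ccl9: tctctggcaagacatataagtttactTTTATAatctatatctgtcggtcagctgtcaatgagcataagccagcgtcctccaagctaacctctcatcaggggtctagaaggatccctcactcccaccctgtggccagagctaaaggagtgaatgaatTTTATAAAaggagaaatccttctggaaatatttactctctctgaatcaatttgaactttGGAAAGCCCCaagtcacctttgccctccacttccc
Ccl6: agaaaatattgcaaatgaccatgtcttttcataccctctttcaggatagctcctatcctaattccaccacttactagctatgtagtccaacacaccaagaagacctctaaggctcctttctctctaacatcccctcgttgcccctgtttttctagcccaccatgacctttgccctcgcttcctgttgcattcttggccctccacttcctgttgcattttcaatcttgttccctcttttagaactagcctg
The window of Ccl9 held 1 match to the NF-kB consensus and 3 to TATAAA, and that of Ccl6 held neither motif. Of the 27025 genes in the promoter table, 8.23% held the NF-kB consensus in at least 1 window, as did 10 of the 40 chemokine and receptor genes matched to it. TATAAA occurred in 14.3% of genes and in 12 of the 40.

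The Ccl21 genes encode the ligand of CCR7 that guides dendritic cells and naive T cells to lymphoid tissue. Ccl21b had log2 ratios of -0.07, -0.03 and 0.09 in cHF+PC livers, -0.12, -0.08 and 0.04 in cHF+R livers, -0.13, -0.01 and 0.09 in cHF+PC+R livers, and -0.66, -0.16 and 0.04 in cHF livers. The cHF livers spread widely and overlapped every other group. With both agents the change was 0.19 ± 0.067 and did not pass (adjusted p = 0.0732). Without cHF replicate 1 or without cHF replicate 2 it passed, with adjusted p of 0.0325 and 0.0296. Mouse Ccl21 genes are near-identical copies on chromosome 4, and the probes of Ccl21a and Ccl21b are printed in part to show how little separates them. The stretches cover bases 26 to 55 of the Ccl21a probe and 30 to 59 of the Ccl21b probe, with the capital on the base that differs within them.
Ccl21a: tatacctaactgaataaaaaGgtgatccag
Ccl21b: tatacctaactgaataaaaaAgtgatccag
Aligned over 56 bases, the 60-base probes matched at 54 and differed at 2. Mean liver intensity was 14700 for the Ccl21b probe and 413 for the Ccl21a probe. Whether either probe binds transcripts of the other gene was not tested. The within-group SD was 0.41 for Ccl21a, and its averaged phospholipid value was 0.14 ± 0.15 (adjusted p = 0.580).

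The other CC ligands of highest intensity showed little difference between diets. Ccl27a, whose product attracts T cells to skin through CCR10, had log2 ratios of -0.06, 0.19 and 0.33 in cHF+PC livers, 0.10, 0.12 and 0.23 in cHF+R livers, -0.09, 0.22 and 0.33 in cHF+PC+R livers, and 0.07, 0.22 and 0.32 in cHF livers. Its groups overlapped throughout, and its largest change against cHF was -0.06 ± 0.057 with rosiglitazone (adjusted p = 0.683). Ccl25, the CCR9 ligand known from thymus and gut, had log2 ratios of -0.38, 0.05 and 0.22 in cHF+PC livers, -0.06, 0.03 and 0.23 in cHF+R livers, -0.10, 0.09 and 0.25 in cHF+PC+R livers, and -0.03, 0.10 and 0.28 in cHF livers. Its groups also overlapped, and its largest change against cHF was -0.06 ± 0.070 with phospholipids (adjusted p = 0.709). Over the 12 CC ligands, the changes against cHF lay between -0.18 and 0.69 with phospholipids, between -0.19 and 0.71 with rosiglitazone, and between -0.22 and 0.88 with both, the upper end being Ccl9 each time.

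Cxcl14 was the only one of the 34 genes called lower with the main processing and the probe of highest intensity. It was called lower in every comparison that adds phospholipids. CXCL14 is a constitutively expressed CXC chemokine of epithelia and other tissues, whose receptor is not settled. Its log2 ratios were -0.26, -0.09 and 0.05 in cHF+PC livers, 0.10, 0.32 and 0.52 in cHF+R livers, -0.53, -0.02 and 0.05 in cHF+PC+R livers, and 0.02, 0.23 and 0.42 in cHF livers. Of the cHF+PC livers 6 of 8 lay below every cHF liver, and of the cHF+PC+R livers 7 of 8 did. All 8 cHF+PC+R livers lay below all 6 cHF+R livers. These 2 groups did not overlap, in either direction, for 1.61% of all genes tested and for no other chemokine or receptor gene. Against cHF it fell by 0.32 ± 0.078 with phospholipids, 1.25-fold (adjusted p = 0.0148, limma), lower on 7 of 7 shared slides. With both agents it fell by 0.37 ± 0.078 against cHF, 1.29-fold (adjusted p = 0.00265), on 7 of 7 slides, and by 0.46 ± 0.081 against cHF+R, 1.37-fold (adjusted p = 0.000613), on 6 of 6 slides. With median centring the calls against cHF were lost, at -0.415 with phospholipids (adjusted p = 0.313) and -0.41 with both (adjusted p = 0.126), and with Cy5 alone that of the combination (adjusted p = 0.0687). Averaged over rosiglitazone it fell by 0.39 ± 0.056, 1.31-fold (adjusted p = 1.87e-05), and this call was kept in all 11 other settings and without any single array.

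With rosiglitazone alone the change of Cxcl14 against cHF was 0.09 ± 0.083 (adjusted p = 0.677), with overlapping groups. The combination differed from cHF+PC by -0.05 ± 0.075 (adjusted p = 0.900), and the interaction was -0.14 ± 0.11 (adjusted p = 0.877). The probe is dim, with a mean liver intensity of 190, and it was not well above background on 1 of 8 cHF+PC arrays. The averaged value ran between -0.93 and -0.32 across the settings.

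**Figure D3:**
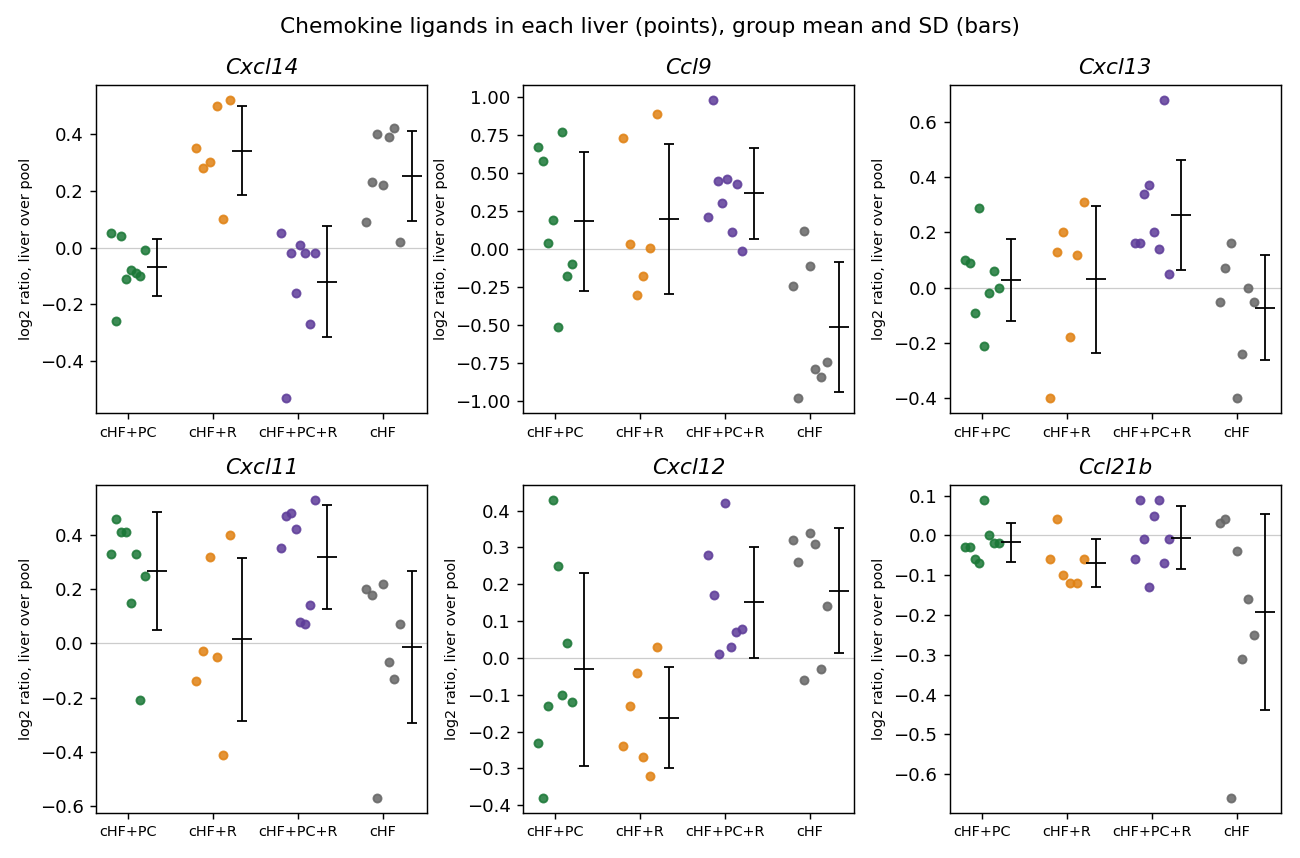
Log2 ratio of liver over pool in each liver for Cxcl14, Ccl9, Cxcl13, Cxcl11, Cxcl12 and Ccl21b, with the group mean and SD beside the points. For Cxcl14 all cHF+PC+R livers lie at or below 0.05 and all cHF+R livers at or above 0.10.

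Few markers of stellate and endothelial cells were called with phospholipids averaged over rosiglitazone, 2 of 10 and 1 of 10, near the 16.3% of all genes. The median changes of these lists were -0.03 and -0.02 (all genes 0). Of 10 stellate cell markers, Lrat, which esterifies retinol for storage, fell with phospholipids by 0.49 ± 0.090 against cHF (adjusted p = 0.00200), and fell by 0.575 ± 0.094 with both agents against cHF+R (adjusted p = 0.000286). Averaged over rosiglitazone, Lrat and Colec11 fell, 2 of 10, and none rose, where 16.3% of all genes passed. The mean log2 ratio of the stellate list ran between -0.12 and 0.02 in cHF+PC livers, -0.08 and 0.15 in cHF+R livers, -0.08 and 0.21 in cHF+PC+R livers, and -0.01 and 0.17 in cHF livers. Of 10 endothelial markers, Cdh5, a cadherin of endothelial junctions, fell by 0.16 ± 0.033 averaged over rosiglitazone (adjusted p = 0.00172), 1 of 10. Of 4 genes tested from the adipocyte list, Cfd and Car3 fell with phospholipids averaged over rosiglitazone, Car3 by 0.79 ± 0.14 (adjusted p = 0.000357). The defining adipocyte genes Adipoq, Plin1 and Lep were well above background on 2, 2 and 0 arrays. The list is therefore no measure of adipocytes in these livers. The part of these cell types in the change of Cxcl14 was not tested.

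Cxcl13 rose with the combination. CXCL13 attracts B cells through CXCR5 and is a marker of B cell follicles. Its log2 ratios were -0.21, 0.03 and 0.29 in cHF+PC livers, -0.40, 0.12 and 0.31 in cHF+R livers, 0.05, 0.18 and 0.68 in cHF+PC+R livers, and -0.40, -0.05 and 0.16 in cHF livers. Of the cHF+PC+R livers 6 of 8 lay above every cHF liver, and the groups overlapped. The Cxcl13 probe is dim, with a mean liver intensity of 135. Its pool channel was well above background on 26 of 29 arrays. Against cHF, Cxcl13 rose by 0.34 ± 0.098 with both agents, 1.26-fold (adjusted p = 0.0272), higher on 7 of 7 shared slides. Neither agent alone passed, at 0.10 ± 0.098 for phospholipids (adjusted p = 0.627) and 0.10 ± 0.11 for rosiglitazone (adjusted p = 0.708), and the interaction was 0.13 ± 0.14 (adjusted p = 0.912). The call was lost with Feature Extraction's signals (0.83, adjusted p = 0.0515), median centring (0.45, adjusted p = 0.197) and the deposited value table (0.44, adjusted p = 0.0986), where the change was larger, and with scaling between arrays (0.27, adjusted p = 0.222), where it was smaller. It was also lost without cHF replicate 4, cHF replicate 5, cHF+PC+R replicate 4 or cHF+PC+R replicate 7 (adjusted p of 0.0539 to 0.0683). Of 7 B cell and plasma cell markers none passed in limma with both agents against cHF, 2 had an unadjusted p below 0.05, and their median change was 0.10. Cxcr5, the receptor, was above background on 26 arrays and was not called in any comparison.

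Cxcl11 was higher with phospholipids averaged over rosiglitazone, and its probe carries a run of bases found in other genes. CXCL11 is an interferon-inducible ligand of CXCR3, and RefSeq GRCm38.p6 annotates the mouse locus as a transcribed pseudogene. The log2 ratios were -0.21, 0.33 and 0.46 in cHF+PC livers, -0.41, -0.04 and 0.40 in cHF+R livers, 0.07, 0.39 and 0.53 in cHF+PC+R livers, and -0.57, 0.07 and 0.22 in cHF livers. The groups overlapped, and the averaged phospholipid change was 0.29 ± 0.087, 1.22-fold (adjusted p = 0.0196). The probe that gave these values lies at chr5:92788567-92788626 (mm9, minus strand, as in the files). Bases 15 to 44 of it are printed because they hold a 16-base run, in capitals, that other genes carry.
Cxcl11: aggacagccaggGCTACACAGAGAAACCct
The run occurred in the probes of 7 other genes on the array and in the promoters of 20 of 27025 genes. Over its whole length the probe shared a 16-base run with probes of 11 other genes on the same strand. Promoters of 54 genes held such a run on either strand. Its mean liver intensity was 209000, against 2840 for the other Cxcl11 probe. How much of its signal came from Cxcl11 RNA was not tested. The other Cxcl11 probe changed by 0.12 ± 0.042 (adjusted p = 0.0481 when every probe was tested on its own). That probe too shared a 16-base run with a probe of 1 other gene on the same strand. Promoters of 9 genes held such a run on either strand. How much of its signal came from Cxcl11 RNA was likewise not tested. The call of the brighter probe was lost with median centring (0.15, adjusted p = 0.991), scaling between arrays (0.54, adjusted p = 0.0625) and Cy5 alone (0.05, adjusted p = 0.669). None of 18 interferon-gamma response genes other than Jak1 passed with phospholipids averaged over rosiglitazone, and Jak1, a kinase of interferon receptors, rose by 0.19 ± 0.063 (adjusted p = 0.0344).

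Cxcl12 passed in no comparison, and its values with either agent alone lay mostly below those in cHF livers. CXCL12 retains haematopoietic cells and lymphocytes through CXCR4 and is also bound by Ackr3. Its log2 ratios were -0.38, -0.11 and 0.43 in cHF+PC livers, -0.32, -0.18 and 0.03 in cHF+R livers, 0.01, 0.08 and 0.42 in cHF+PC+R livers (7 of 8 with a value), and -0.06, 0.26 and 0.34 in cHF livers. Of the cHF+PC livers 5 of 8 lay below every cHF liver, as did 4 of 6 cHF+R livers and none of the 7 cHF+PC+R livers, and the groups overlapped. The change with rosiglitazone alone was -0.34 ± 0.10 (adjusted p = 0.0594), and the combination differed from cHF+R by 0.31 ± 0.10 (adjusted p = 0.0592). The interaction of Cxcl12 was 0.53 ± 0.14 (adjusted p = 0.419, limma). The rosiglitazone change passed with the deposited value table and with array weights, and without cHF replicate 3, cHF replicate 6, cHF+R replicate 6, cHF+PC replicate 2 or cHF+PC replicate 4 (adjusted p of 0.0273 to 0.0441). The difference of the combination from cHF+R passed with the same pair of settings and without cHF+R replicate 6, cHF+PC replicate 2 or cHF+PC replicate 4 (adjusted p of 0.0308 to 0.0424). A second Cxcl12 probe, with values on 24 arrays, gave -0.27 ± 0.089 with rosiglitazone (adjusted p = 0.116) and fell by 0.29 ± 0.076 with phospholipids (adjusted p = 0.0303) when every probe was tested on its own. Of the 4 genes tested from the adipocyte list, Cfd and Retn rose with rosiglitazone alone, Cfd by 4.51 ± 0.83 (adjusted p = 0.00149) and Retn by 0.655 ± 0.18 (adjusted p = 0.0457). The mean log2 ratio of the 4 genes ran between -1.97 and -0.77 in cHF+PC livers, -0.38 and 1.25 in cHF+R livers, -1.54 and 0.78 in cHF+PC+R livers, and -1.36 and -0.72 in cHF livers, and their part in the values of Cxcl12 was not tested.

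Cxcl9 and Cxcl10, interferon-gamma-inducible ligands of CXCR3 that attract activated T cells and NK cells, differed widely between livers of a group and were not called between diets. Cxcl9 had log2 ratios of -1.09, -0.32 and 0.51 in cHF+PC livers, -0.42, 0.06 and 1.08 in cHF+R livers, -0.66, -0.05 and 0.32 in cHF+PC+R livers, and -0.67, -0.15 and 1.03 in cHF livers. Its change against cHF was -0.20 ± 0.25 with phospholipids (adjusted p = 0.717), 0.31 ± 0.27 with rosiglitazone (adjusted p = 0.642) and 0.03 ± 0.25 with both (adjusted p = 0.959). Cxcl10 had log2 ratios of -0.49, -0.06 and 0.62 in cHF+PC livers, -0.34, 0.25 and 0.98 in cHF+R livers, 0.05, 0.23 and 0.77 in cHF+PC+R livers, and -0.41, 0.07 and 0.78 in cHF livers. All 8 cHF+PC+R livers were above 0 for Cxcl10, with 1 of them above every cHF+PC liver and none above every cHF liver, and its averaged rosiglitazone value was 0.24 ± 0.13 (adjusted p = 0.334).

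The receptors were called in no comparison in limma. Over the 13 receptors tested, the changes against cHF lay between -0.07 and 0.16 with phospholipids, -0.05 and 0.15 with rosiglitazone, and -0.07 and 0.15 with both, and the lowest adjusted p of any receptor in any comparison was 0.195. At an unadjusted p below 0.05 stood 1 receptor with rosiglitazone alone and 1 with rosiglitazone averaged over phospholipids, in each case Ccr2, the monocyte receptor of CCL2. Ccr2 was above background on 6 of 29 arrays, 0 of them cHF+PC+R arrays. Receptor probes were dim, with mean liver intensities of 68 for Ccr2 and 231 for Cxcr6, for example. In the pool channel Cxcr7 was above background on 0 arrays, Ccr2 and Ccr8 on 1, and Ccr9 on 2. Ccr10 was so on 3, Ccr3 and Ccr6 on 5, and Cxcr5 on 13. Cx3cr1 was so on 28, and Ccr7, Cxcr3 and Cxcr6 on 29. Small changes of the dim receptors can therefore not be read as absence of change. Cxcr6, the CXCL16 receptor of NKT cells that patrol the liver sinusoids, had log2 ratios of -0.30, -0.04 and 0.21 in cHF+PC livers, -0.58, -0.07 and 0.75 in cHF+R livers, -0.38, -0.13 and 0.39 in cHF+PC+R livers, and -0.41, -0.28 and 0.38 in cHF livers. The groups overlapped for Cxcr6.

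Cx3cr1, the fractalkine receptor of monocytes, had log2 ratios of -0.19, -0.01 and 0.29 in cHF+PC livers, -0.10, 0.16 and 0.72 in cHF+R livers, -0.31, 0.18 and 0.38 in cHF+PC+R livers, and -0.20, 0.12 and 0.21 in cHF livers. Ccr7, the receptor of CCL19 and CCL21, had log2 ratios of -0.32, 0.00 and 0.09 in cHF+PC livers, -0.31, -0.04 and 0.39 in cHF+R livers, -0.33, 0.08 and 0.46 in cHF+PC+R livers, and -0.29, -0.04 and 0.09 in cHF livers. The groups overlapped for both. The changes against cHF closest to the threshold among these 3 receptors were 0.15 ± 0.15 for Cxcr6 (adjusted p = 0.579) and 0.13 ± 0.099 for Ccr7 (adjusted p = 0.441), both with the combination.

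Many chemokine and receptor genes varied more between livers on the same diet than the typical gene did. The within-group SD of the log2 ratio exceeded the median of all genes tested in 27 of 34 members, and the members' median was 0.18 against 0.11 for all genes. The widest were Cxcl1, a neutrophil attractant of CXCR2 (SD 0.60, at the 99.4th percentile of all genes), Ccl5, an attractant of T cells and NK cells (0.52), and Cxcl9 (0.51). Ccl9 (0.42), Ccl21a (0.41) and Cxcl10 (0.36) followed. Cxcl1 and Ccl5 were named here after their values were seen. Cxcl1 reached 2.11 in cHF+R replicate 6 and 1.73 in cHF+PC+R replicate 2, against medians of -0.05 in cHF+PC livers, -0.11 in cHF+R livers, -0.08 in cHF+PC+R livers and -0.42 in cHF livers. Ccl5 had log2 ratios of -0.68, -0.33 and 0.92 in cHF+PC livers, -0.53, -0.19 and 0.65 in cHF+R livers, -0.57, -0.40 and 0.31 in cHF+PC+R livers, and -0.85, -0.22 and 1.15 in cHF livers. The highest Ccl5 livers of the groups were cHF+PC replicate 2, cHF+R replicate 6, cHF+PC+R replicate 2 and cHF replicate 3. Other livers lay near the highest in cHF+R (replicate 2 at 0.46) and in cHF+PC+R (replicate 6 at 0.23).

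**Figure D4:**
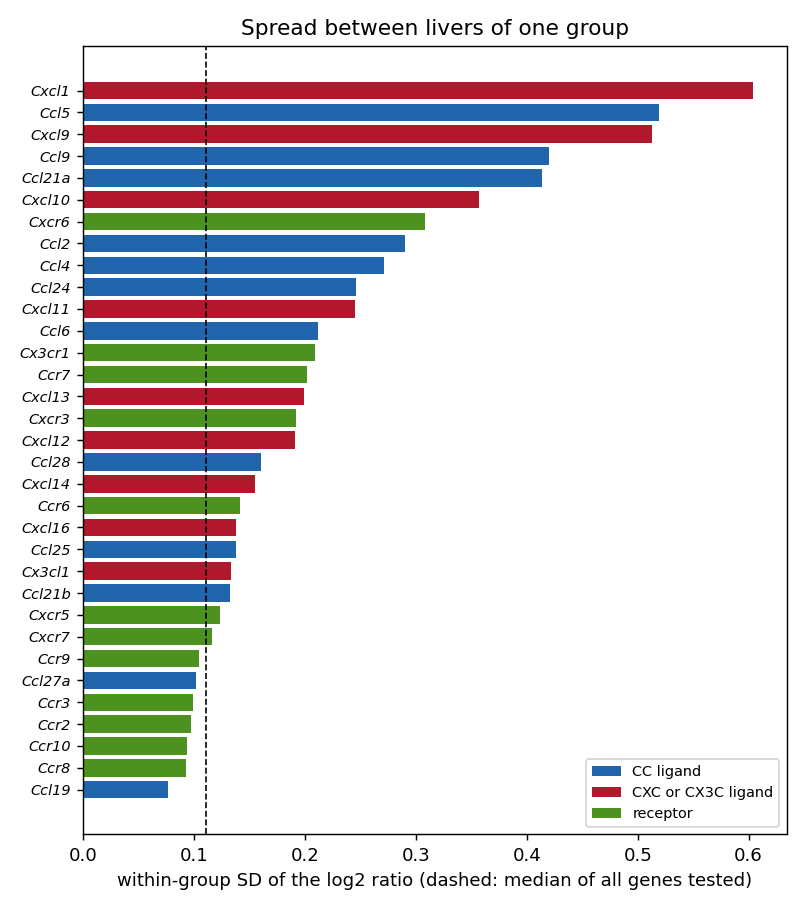
Within-group SD of the log2 ratio for 33 of the genes tested, coloured by role, with the dashed line at the median of all genes tested (0.11). Cxcl1, Ccl5 and Cxcl9 stand highest, and 26 of the 33 genes lie beyond the line.

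The relations that follow are between pairs chosen after their values were seen, so their p-values describe these livers and are no independent support. After removing group means, Cxcl9 and Cxcl10 correlated over the 29 livers with r = 0.859 and rho = 0.796 (permutation within groups, p = 1e-05 for r, the smallest that 100000 permutations can give, and 2e-05 for rho, with adjusted p of 2.5e-05 and 5e-05 over the 5 relations computed). Without the 2 livers farthest from the median, cHF+R replicate 6 and cHF replicate 3, r was 0.784, and with slide means removed it was 0.878. Cxcl9 and Ccl5 correlated with r = 0.799 and rho = 0.711 (permutation p = 2e-05 and 0.00011, adjusted p = 3.33e-05 and 0.000183). Without the same 2 livers r was 0.692, and with slide means removed 0.882. Ccl5 and Cxcr6 correlated with r = 0.522 and rho = 0.680 (permutation p = 0.00634 and 0.00015, adjusted p = 0.00792 and 0.000187), with r = 0.766 without cHF+PC replicate 2 and cHF replicate 3 and 0.523 with slide means removed. The correlation of Ccl9 with Ccl6 did not pass, with r = 0.335 and rho = 0.310 (permutation p = 0.105 and 0.128, both unchanged by adjustment), r = 0.258 without cHF+R replicate 6 and cHF replicate 3, and r = 0.386 with slide means removed.

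**Figure D5:**
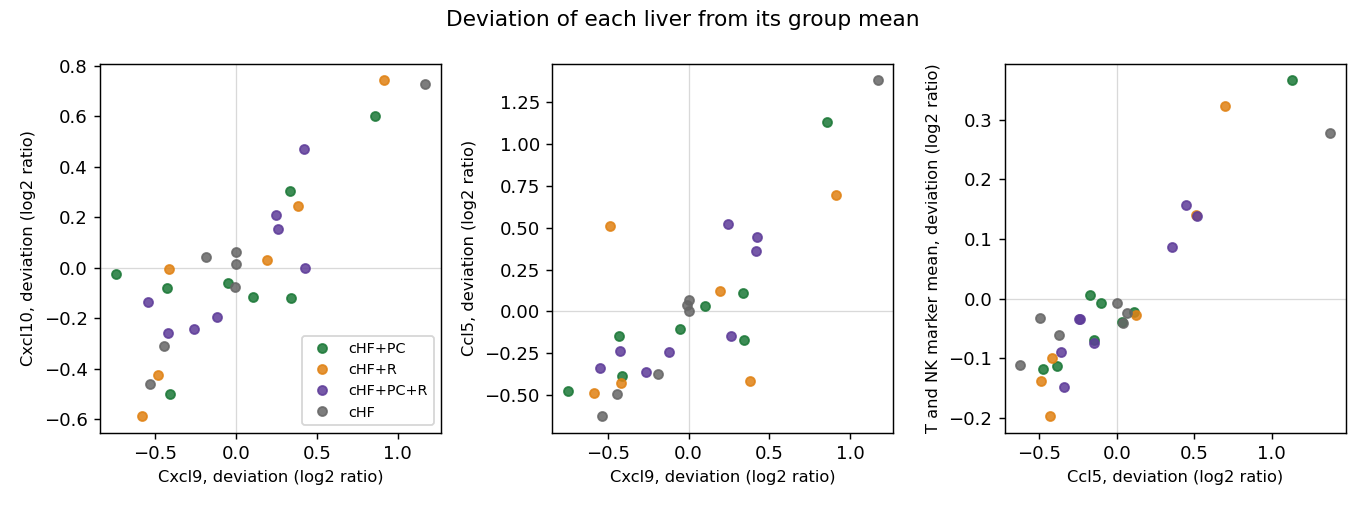
Deviation of each of the 29 livers from its group mean, on the log2 ratio scale, for Cxcl10 against Cxcl9, Ccl5 against Cxcl9, and the mean of 14 T and NK cell markers against Ccl5. Deviations rise together in each panel, with r = 0.859, 0.799 and 0.926. In the panel of Ccl5 against Cxcl9, cHF+R replicates 1 and 2 lie off this rise. Their log2 ratios of Cxcl9 and Ccl5 were 0.547 and -0.463 in replicate 1, and -0.317 and 0.465 in replicate 2.

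In most groups the liver with the highest Ccl5 also had the highest mean of T cell and NK cell markers. The mean log2 ratio of 14 such markers ran between -0.08 and 0.40 in cHF+PC livers, -0.15 and 0.37 in cHF+R livers, -0.12 and 0.19 in cHF+PC+R livers, and -0.10 and 0.29 in cHF livers. Its highest livers were cHF+PC replicate 2, cHF+R replicate 6, cHF+PC+R replicate 6 and cHF replicate 3. With Ccl5, itself a product of these cells, the mean correlated with r = 0.926 and rho = 0.847 over 29 livers (permutation p = 1e-05 for both, adjusted p = 2.5e-05 and 5e-05). Without cHF+PC replicate 2 and cHF replicate 3 r was 0.892, and with slide means removed 0.928. None of the 14 markers passed in limma in any comparison of diets, and 1 had an unadjusted p below 0.05 with both agents against cHF and 1 against cHF+PC.

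The promoters of Cxcl9 and Cxcl10 are printed because the genes are neighbours on chromosome 5 and varied together. The windows of 250 bases before each start lie on the minus strand at chr5:92328080-92328329 and chr5:92348890-92349139 (RefSeq, GRCm38.p6), with the same motifs in capitals.
Cxcl9: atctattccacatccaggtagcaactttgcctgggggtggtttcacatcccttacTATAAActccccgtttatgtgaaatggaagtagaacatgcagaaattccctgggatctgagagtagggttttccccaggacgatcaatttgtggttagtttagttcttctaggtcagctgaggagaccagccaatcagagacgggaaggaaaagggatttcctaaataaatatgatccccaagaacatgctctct
Cxcl10: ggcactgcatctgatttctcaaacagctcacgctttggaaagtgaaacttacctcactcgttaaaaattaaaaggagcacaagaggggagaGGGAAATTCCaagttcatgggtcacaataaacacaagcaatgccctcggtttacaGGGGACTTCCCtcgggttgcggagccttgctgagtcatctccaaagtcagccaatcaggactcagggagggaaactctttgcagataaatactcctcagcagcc
The Cxcl10 window held 3 matches to the NF-kB consensus, 2 of them overlapping, and none to TATAAA, and the Cxcl9 window held 1 match to TATAAA. A match describes the letters and not a bound site.

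Genes around the chemokine system were called at most 3 at a time per list. The shares of all genes called were 16.3% for phospholipids averaged over rosiglitazone, 4.2% for rosiglitazone averaged over phospholipids, and 3.93%, 3.12% and 9.49% against cHF for phospholipids, rosiglitazone and both. Of 8 tested family members outside the naming pattern, Ackr2, a scavenging receptor for inflammatory CC chemokines, fell by 0.19 ± 0.060 with phospholipids averaged over rosiglitazone (adjusted p = 0.0313). Of 20 genes of receptor signalling, Grk5, a receptor kinase, fell by 0.39 ± 0.13 in that comparison (adjusted p = 0.0345), and Plcb3, a phospholipase C, rose by 0.13 ± 0.032 with rosiglitazone averaged over phospholipids (adjusted p = 0.0193). Of 22 genes of the NF-kB pathway and its targets, Myd88, an adaptor of Toll-like and interleukin-1 receptors, rose by 0.23 ± 0.046 with rosiglitazone alone (adjusted p = 0.00295) and by 0.19 ± 0.043 with both agents (adjusted p = 0.00574). Nfkbia, the inhibitor of NF-kB, rose by 0.19 ± 0.065 with phospholipids averaged over rosiglitazone (adjusted p = 0.0425). Of 18 genes of the interferon-gamma response, Psmb9, an immunoproteasome subunit, fell with both agents by 0.48 ± 0.14 (adjusted p = 0.0243) and Jak1 rose by 0.30 ± 0.087 (adjusted p = 0.0257). Of 11 monocyte and neutrophil markers, Ly6c1 fell by 0.62 ± 0.18 with phospholipids alone (adjusted p = 0.0481). This list lacked Ly6c2 and Ly6g, which had no probe of that name, and Mpo, Ngp and Mmp8, which were left out as dim. It is therefore no full measure of these cells. Averaged over rosiglitazone Itgam rose by 0.13 ± 0.042 (adjusted p = 0.0330), and Chil3 and Lcn2 fell. Of 8 dendritic cell markers Siglech alone passed, rising in that comparison. Of 5 cholangiocyte markers none passed in limma in any comparison, and 1 had an unadjusted p below 0.05, with both agents against cHF. Of 10 hepatocyte markers 1 rose and 2 fell with both agents against cHF, 1 fell with each agent alone, 2 rose with both agents against cHF+R (all genes 7.13%), 2 rose and 1 fell with phospholipids averaged, and 1 fell with rosiglitazone averaged.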

How the data were processed

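Per the file headers, Agilent Feature Extraction 10.5.1.1 gave the linear intensity of each spot in both colours, with its local background, not yet normalized. A deposited table by the authors holds log2 values for 25806 probes, with a median of 9.03 in each column. Each column followed the log2 Cy5 signal of its own array (r of 0.990 to 0.999), and the table served as an alternative. Its normalization is not stated in the labels. Per the labels, the authors left out 1 HF and 1 R array before deposit. Dyes were not swapped.

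Intensities were corrected with normexp (offset 50) and loess-normalized within each array with limma 3.58.1 (R 4.3.3, files read with version 1.17.8 of data.table). Control and outlier spots were left out. Probes above background in the Cy5 channel on 6 or more of 29 arrays, and with a value on 20 or more, were kept, and the probe of highest mean intensity stood for each of 19463 genes. A spot's missing value dropped that array from the gene's fit. Gene names follow the file for members and RefSeq GRCm38.p6 for other genes. The 4 group means were fitted together (lmFit, eBayes), two-sided, with Benjamini-Hochberg adjustment over all genes and a threshold of 0.05. Errors are standard errors of the fit, and replicates are livers of separate mice. The number of arrays limits the precision.

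Members described in full were those past the threshold or under an unadjusted p of 0.01 in any of 8 comparisons, and the 4 of highest intensity per role. The members and the 14 lists (190 genes) were chosen with earlier results of these data known. On simulated data for cHF+PC against cHF over 19463 genes, 91% of log2 changes of 0.5 and 98% of changes of 1 were recovered, and 17 unchanged genes were called. The changes were planted in genes drawn at random from all genes tested. Members varied more within groups (median SD 0.18 against 0.11), so these rates do not give the recovery for members. Alternatives were Feature Extraction's processed signals, median centring, scaling between arrays, Cy5 alone, the deposited table, other filters, each probe on its own, the slide (8 slides, from the array barcode) or the replicate number as a block, array weights, and each array left out. The values of some genes are not reported here.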

Additional observations from a re-analysis of the deposited data

Results flagged for a closer look

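Of the 56 sets of livers formed by 14 members and 4 diets, 6 held a liver far from the others of its diet by Dixon's criterion, and chance marks about 1 set in 20. Ccl9 stood at 0.98 in cHF+PC+R replicate 2, where the next liver was at 0.46. Cxcl11 stood at -0.21 in cHF+PC replicate 7, with the next at 0.15. Ccl21b stood at 0.09 in cHF+PC replicate 5, with the next at 0.00, a gap small in absolute size. Ccl27a stood at -0.09 in cHF+PC+R replicate 3, with the next at 0.15. Ccl25 stood at -0.38 in cHF+PC replicate 6, with the next at 0.01. Cxcl9 stood at 1.03 in cHF replicate 3, with the next at -0.14, and the same liver was the highest cHF liver for Ccl5 (1.15) and for the mean of the T and NK cell markers (0.29). All these values are log2 ratios of liver over pool.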

How the results depend on the processing

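No member changed direction among called results in any of the 11 other settings or with any array left out. With phospholipids alone the count of 2 members became 1 (Cxcl14) with Feature Extraction's signals, scaling between arrays, Cy5 alone, no filter on dim probes or the slide as a block, 0 with median centring, and 3 (with Cxcl12) with every probe on its own or array weights. With rosiglitazone alone the count of 0 became 1 (Cxcl12) with the deposited table and 2 (Ccl9 and Cxcl12) with array weights. With both agents against cHF the 3 became 0 with median centring and 1 (Cxcl14) with scaling. In that comparison Cxcl13 also lost its call with Feature Extraction's signals (adjusted p = 0.0515) and the deposited table (adjusted p = 0.0986). Cxcl14 lost its call there with Cy5 alone (adjusted p = 0.0687). Against cHF+R the 1 became 2 (Cxcl12 and Cxcl14) with the deposited table and 3 (Cxcl11, Cxcl12 and Cxcl14) with array weights. Phospholipids averaged gave 1 (Cxcl14) in place of 3 with median centring and with scaling, and rosiglitazone averaged gave 1 (Ccl9) in place of 0 with array weights. Phospholipids averaged gave 4 (with Ccl6) with Feature Extraction's signals, and Ccl9 also lost that call with the slide as a block (adjusted p = 0.0525), no filter (0.0589) and Cy5 alone (0.067). Cxcl11 lost its averaged call with Cy5 alone too (adjusted p = 0.669). The cause was not tested. Median centring and scaling also called fewer of all genes, 10 and 253 against 765 with phospholipids alone, and median centring moved the median of all genes to 0.15 with rosiglitazone alone.

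With each array left out in turn, the count ran between 1 and 2 with phospholipids alone, 0 and 2 with rosiglitazone alone, 2 and 4 with both against cHF, 1 and 2 against cHF+R, 2 and 4 for phospholipids averaged and 0 and 1 for rosiglitazone averaged, and was 0 throughout against cHF+PC and for the interaction. The Ccl9 call with phospholipids alone was lost without cHF+PC replicate 1, 2, 3, 4 or 6, cHF+R replicate 2, 4 or 5, cHF+PC+R replicate 1, 3, 4, 5, 6, 7 or 8, or cHF replicate 2, 5, 6 or 7, and that for phospholipids averaged without cHF+PC replicate 1, 2, 4 or 6, cHF+R replicate 2, 3, 4 or 5, cHF+PC+R replicate 2, 3, 4, 5 or 7, or cHF replicate 2, 5, 6 or 7. Without cHF replicate 4, the array with most spots above background, Ccl9 and Cxcl14 kept their calls with phospholipids alone and with both agents, and Cxcl13 lost its call.

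The replicate number as a block left every count as it was, such as 2 with phospholipids alone and 3 with both agents against cHF. Deviations of same-numbered livers correlated with r between -0.353 and 0.402 (median 0.0178), above 0.1 in 14 of 40 pairs. Those of different-numbered livers had a median r of -0.00548, above 0.1 in 60 of 274 pairs. The labels do not say what the numbers mark, and they were not taken as pairs. Signal over background is the limit for the 21 members left out as dim.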
